A study of Mus musculus with 2 samples.

Results

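The cytokine genes Tnf, Il1a, Il1b, Il6, Il10, Il18 and Il33, the receptor antagonist gene Il1rn and the receptor genes Il1rap and Tnfrsf1a were examined in the white matter of wild-type (WT) mice and of CD47 null mice (CD47 KO), in which the gene for the membrane protein CD47 is inactivated in the germ line. These 10 genes were taken by name from a list of interleukins, TNF and their regulators, out of 18193 named genes on the array, and all 16 probe sets annotated to them, of 45037 that are no controls, were used. Total RNA was taken from optic nerves and tracts of male mice, aged 13 to 15 weeks for WT and 12 to 15 weeks for CD47 KO. Each genotype was represented by 1 array, hybridised with RNA pooled from several animals. The description of the series gives 5 WT and 4 CD47 KO animals and the labelling protocol gives 4 WT and 5 CD47 KO animals. With 1 pool per genotype there was no replicate, and no difference between the genotypes could be tested. Because the tissue was measured in bulk, fewer cells of a type and less RNA per cell cannot be told apart.

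Interleukin-1 and TNF are the classical signals by which activated myeloid cells start inflammation. The ligands IL-1α and IL-1β bind a receptor that needs the accessory protein encoded by Il1rap, and IL-33 uses the same accessory protein with a receptor chain of its own. IL-1 receptor antagonist, the product of Il1rn, occupies the receptor without signalling. IL-1β and IL-18 are made as precursors that caspase-1 cleaves within the inflammasome, a complex built on the adaptor encoded by Pycard, whereas IL-33 is a nuclear protein that is released when a cell is damaged. TNF is shed from the membrane by the protease ADAM17 and acts through the broadly expressed receptor TNFR1 (Tnfrsf1a) and the more restricted TNFR2 (Tnfrsf1b). In the mouse brain and spinal cord, IL-33 is known from oligodendrocytes and astrocytes, and IL-1α, IL-1β and TNF are known chiefly from microglia.

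The promoters of these genes differ just upstream of the start of transcription. Of them 6 windows are shown, those with the motif sought below and those of the receptor genes. RefSeq sequences of mouse assembly GRCm38.p6 held 12 promoters of 9 of the genes. The motif TATAAA was sought at positions -45 to -16, counted back from the start site. It stood there on the strand of the gene in 4 of the 12 promoters, against 2.22% of all 32851 mouse promoters. With the other strand (TTTATA, which can overlap the first motif) included, the counts were again 4 of 12, against 2.90%. Each window below runs from position -45 to 10 bases past the start, 5′ to 3′ along the gene, with TATAAA in capitals. Il1a lies at chr2:129309963-129310017 (minus strand), Il1b at chr2:129371130-129371184 (minus strand), Tnf at chr17:35201998-35202052 (minus strand), and the further start of Il33 at chr19:29945745-29945799 (plus strand). Tnfrsf1a at chr6:125349678-125349732 and Il1rap at chr16:26581660-26581714, both on the plus strand, have no such motif in the window. The promoters not shown lack it too: those of the ligand genes Il6 and Il18, of Il1rn and of the other start of Il33. The motif therefore does not divide the ligands from the receptors.
Il1a: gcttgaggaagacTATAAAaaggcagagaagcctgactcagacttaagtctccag
Il1b: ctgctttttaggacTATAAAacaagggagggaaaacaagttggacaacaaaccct
Tnf: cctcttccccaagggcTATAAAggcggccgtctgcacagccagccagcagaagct
Il33: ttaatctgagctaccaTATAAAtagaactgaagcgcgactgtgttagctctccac
Tnfrsf1a: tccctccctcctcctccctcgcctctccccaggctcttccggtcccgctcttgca
Il1rap: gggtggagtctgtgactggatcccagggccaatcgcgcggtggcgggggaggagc
The motif began at position -32 in Il1a, -31 in Il1b and -29 in Tnf and Il33. Of these genes Il33 was above the limit of measurement on both arrays whereas Il1a, Il1b and Tnf were near or under it. Which start of Il33 gave its signal was not examined. The letters describe the sequence and say nothing of which factor bound it in this tissue.

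Values are MAS5 signals, the brightness of a probe set on a linear scale as deposited. Leaving out 2% of probe sets at each end, the mean signal was 500.003 on both arrays, as after scaling to a common target. Signals of different probe sets have no common scale, so that each is compared only with itself on the other array. The limit of measurement, here called the floor, was the median of all signals of both arrays together, 106.2. Of 45037 probe sets, 47.0% were above it in both arrays. The targeted gene Cd47, which checks the labels, was lower in CD47 KO: 3 of its 5 probe sets passed the floor in both arrays and kept 34.3% to 39.5% of the WT signal.

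Of the 10 genes 5 gave a signal that could be measured in at least 1 pool and 5 did not. Over the whole array 12481 of 18193 genes gave one, each read by its brightest probe set. Il18, Il33, Il1rap and Tnfrsf1a were above the floor in both arrays, Il1a was above it in CD47 KO alone, and Tnf, Il1b, Il6, Il10 and Il1rn were under it in both. By probe sets 7 of 16 were above the floor in both arrays, 1 in 1 array and 8 in neither. None of the 8 probe sets with a ratio was over 2-fold higher or lower in CD47 KO, where 1.06% of all 23874 probe sets above the floor in at least 1 array were over 2-fold higher and 0.754% over 2-fold lower. None was over 1.5-fold either way, whereas 4.44% of all were over 1.5-fold higher and 4.55% over 1.5-fold lower. The log2 ratio (CD47 KO pool to WT pool) was above 0 for 5 of the 8 probe sets and below 0 for 3, and it was above 0 for 48.3% of all. Their median was 0.06, beside -0.01 over all probe sets, so that by probe sets shares and median were near those of the array. Il1rap gave 4 of the 8 probe sets and all 3 that were below 0. Taken by the brightest probe set of each gene, all 5 measured genes were above 0, Il1a by a bound, with a median of 0.23. Over all measured genes 46.8% were above 0 and the median was -0.02.

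**Figure D1:**
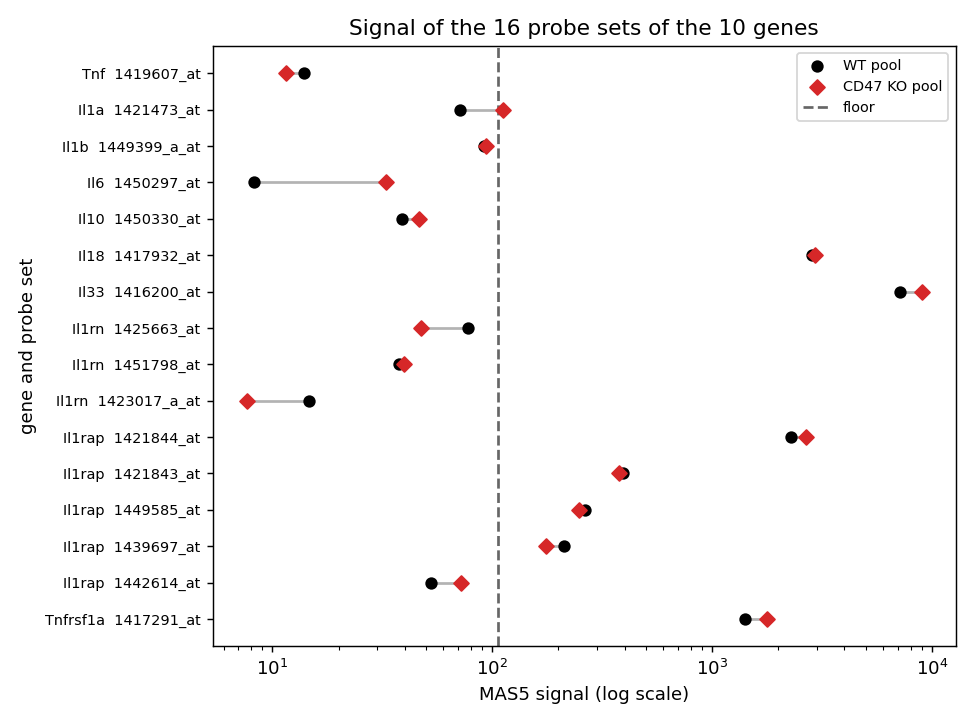
MAS5 signal (horizontal, log scale) of the 16 probe sets of the 10 genes, with a black circle for the WT pool, a red diamond for the CD47 KO pool and a dashed line at the floor of 106.2. The 7 probe sets to the right of the floor have both points close together, and the widest gap, that of Il6, lies wholly under the floor.

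Among the ligands, Il33 gave 7171 in the WT pool and 8997 in the CD47 KO pool. It was 1.25-fold higher in CD47 KO (log2 ratio 0.33). This was the highest ratio among the 7 probe sets measured in both arrays. Those probe sets that passed the floor in both arrays were cut by brightness into 4 groups of about equal size. In the brightest group, which counts 5291 probe sets and holds Il33, 6.29% had a higher ratio, and all but the outermost 5% lay between -0.50 and 0.55. The markers of cells known to make IL-33 were measured beside it. Of the oligodendrocyte markers 9 of 9 were above 0, with a median log2 ratio of 0.11. Of the astrocyte markers 7 of 10 were above 0, with a median of 0.08. Mobp and S100b, the brightest marker of each, had log2 ratios of 0.15 and -0.04, and Opalin and Gfap, those with the largest, 0.62 and 0.52. Gfap was read by a probe set whose name marks possible cross-hybridisation. The part of either cell type in the ratio of Il33 was not tested.

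Il18, which encodes a precursor that caspase-1 activates, gave 2861 in the WT pool and 2937 in the CD47 KO pool. The signals were nearly equal, 1.03-fold higher in CD47 KO (log2 ratio 0.04), and 41.4% of the brightest group had a higher ratio.

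Il1a, the ligand IL-1α, gave 71.0 in the WT pool and 111.9 in the CD47 KO pool. Only the CD47 KO signal passed the floor, and it did so narrowly, so that the ratio is a bound of at least 1.05-fold higher. The bound depends on where the floor is set. With the floor at the 40th percentile of all signals, 67.5, both arrays passed and the ratio was 1.58-fold (log2 ratio 0.66). With the floor at the 60th percentile, 186.1, neither passed. For Il1a the data therefore give a level near the limit of measurement and no settled size of difference.

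Il1b, the ligand IL-1β, gave 91.3 in the WT pool and 93.9 in the CD47 KO pool, just under the floor on both arrays. With the floor at the 40th percentile it was measured in both, with a log2 ratio of 0.04. Il10, an anti-inflammatory cytokine, gave 38.9 in the WT pool and 46.3 in the CD47 KO pool. Tnf had the signals 13.9 and 11.5, and Il6, the ligand of the gp130 receptor, 8.22 and 32.8. All 3 lay under the floor at the 40th percentile as well. The wide gap of Il6 is between signals that are both far under the floor, and no ratio is given for it. A signal under the floor does not show that a transcript is absent, since the array gives no lower bound for it.

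Il1rn, the natural antagonist of IL-1, was read by 3 probe sets, all under the floor on both arrays. The brightest gave 77.6 in the WT pool and 47.2 in the CD47 KO pool. The next had the signals 37.9 and 39.5, and the third 14.7 and 7.65. The 3 did not point one way, and none gives a ratio. A floor at the 40th percentile put the brightest above it in WT alone.

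Tnfrsf1a, the receptor that passes on most of the inflammatory action of TNF, gave 1416 in the WT pool and 1772 in the CD47 KO pool. It was 1.25-fold higher in CD47 KO (log2 ratio 0.32), and 6.44% of the brightest group had a higher ratio. The ligand Tnf was under the floor on both arrays while this receptor was well above it on both. Since probe sets have no common scale, this does not compare the amounts of the 2 transcripts.

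Il1rap was read by 5 probe sets, which disagreed in direction. The brightest gave 2277 in the WT pool and 2671 in the CD47 KO pool and was 1.17-fold higher in CD47 KO (log2 ratio 0.23). The next, designed from the same sequence record, had the signals 394.1 and 376.0, with a log2 ratio of -0.07. Another went from 263.2 to 248.2, with a log2 ratio of -0.08. The dimmest of those above the floor went from 212.9 to 175.4, with a log2 ratio of -0.28. The fifth probe set was under the floor at 52.6 and 71.8. Thus 1 of 4 probe sets was higher in CD47 KO and 3 were lower, and the choice of the brightest decides the direction given to the gene.

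This spread was within the usual one between probe sets of a gene. In 4744 genes with more than 1 probe set measured in both pools, 11670 pairs of probe sets could be compared. Their log2 ratios differed with an SD of 0.36, and the 95th percentile of the difference was 0.75. This corresponds to an SD of 0.26 for a single ratio, which the ratios of Il33 and Tnfrsf1a exceeded upward and that of the dimmest measured probe set of Il1rap downward. The ratios of Il18 and of the other 3 measured probe sets of Il1rap were smaller in size. It holds no variation between animals or hybridisations.

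**Figure D2:**
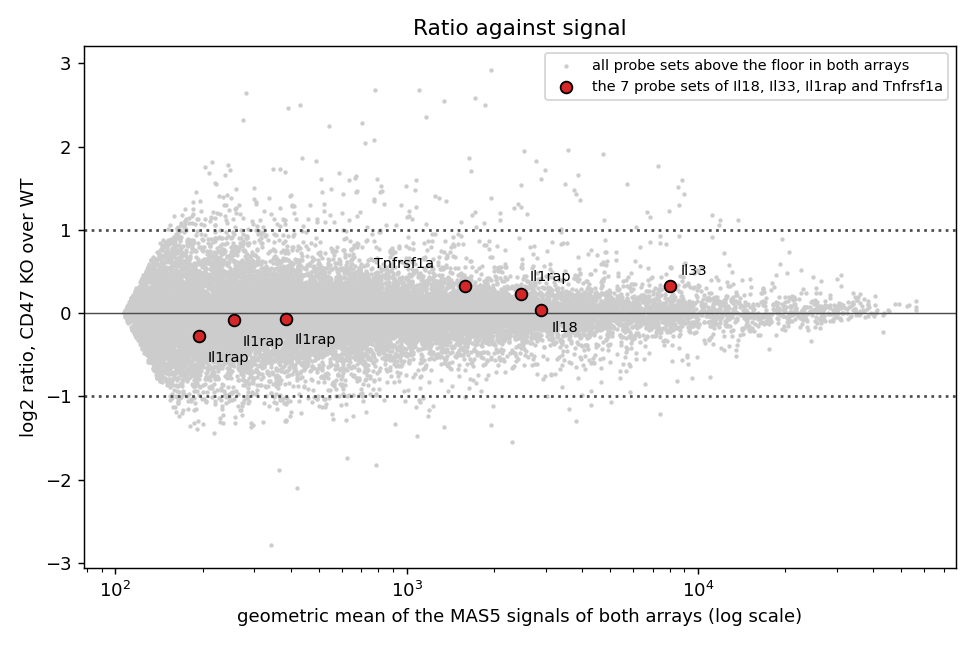
Log2 ratio, CD47 KO to WT pool (vertical) against the geometric mean of the signals of both arrays (horizontal, log scale) for all probe sets measured in both pools (grey) and for the 7 probe sets of Il18, Il33, Il1rap and Tnfrsf1a (red); dotted lines mark a 2-fold difference. The red points run from -0.28 to 0.33 and lie within the grey cloud, with the dimmer probe sets of Il1rap below the zero line.

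The other genes of these pathways were taken from 12 lists and are given by the brightest probe set of each gene. A ratio could be formed for 12481 genes, of which 1.21% were over 2-fold higher and 0.817% over 2-fold lower in CD47 KO, and 46.8% had a log2 ratio above 0. Without chemokines and without the 10 genes above, 79 of 134 pathway genes were above the floor. Among these 59 had a log2 ratio above 0, and 4 exceeded 2-fold upward and 0 downward, with a median of 0.19 against -0.02 over all genes. The 4 were Casp1, Pycard, Osmr and, by a bound, Ebi3. The 79 genes, like the 12481, include some above the floor in 1 array alone, and that array fixed their direction. Of the 79 these were Casp4, Il1rl2, Bcl3, Il10ra, Il12a, Il4ra and Ebi3 through CD47 KO, and Il1f10 and Il12rb1 through WT. Most ligands were under the floor: of 51 interleukin, IL-6 family and TNF family ligands, a grouping chosen after the values were seen, 14 were above it. Over the whole array 12481 of 18193 genes were.

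Among the ligands of the IL-1 family 4 of 9 were above the floor. Il1f10, a ligand known for dampening inflammation, was above it in WT alone, at 159.1 against 53.9 in CD47 KO, a log2 ratio of -0.58 or below. The ligands Il1f6, Il1f8 and Il1f9 were under it in both arrays. Of the receptors and decoys of the family 4 of 10 were above the floor, 3 of them in both arrays. By the brightest probe set all 4 had a log2 ratio above 0. For Il1rl2, above the floor in CD47 KO alone, this direction was fixed, and other probe sets of Il1rap were below 0. The signalling receptor gene Il1r1 went from 225.6 to 313.9 (log2 ratio 0.48). The neuronal relative Il1rapl1 had a log2 ratio of 0.53. Il1rl2, the receptor of IL-36, was at least 1.26-fold higher, by a probe set whose name marks possible cross-hybridisation. The decoy receptor gene Il1r2, the IL-18 receptor genes Il18r1 and Il18rap, the IL-18 binding protein gene Il18bp and the inhibitory receptor gene Sigirr did not reach the floor in either array.

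In the list of inflammasome and cytokine processing genes 7 of 8 measured members had a log2 ratio above 0, and the median was 0.73. Casp1, which encodes caspase-1, went from 130.2 to 285.5 and was 2.19-fold higher. Pycard, the adaptor ASC, went from 708.1 to 1546 and was 2.18-fold higher. The sensor gene Nlrp3 went from 121.0 to 204.1 (log2 ratio 0.75). Casp4, a caspase that senses lipopolysaccharide, passed the floor in CD47 KO alone, at 174.7 against 15.8 in WT, and was at least 1.65-fold higher. Adam17, the sheddase of TNF, had a log2 ratio of 0.40, and Furin was the member below 0, at -0.11. When the floor was raised to the 60th percentile, Casp1 became a bound of at least 1.53-fold and the median of the list 0.26, below those of 4 other lists, whereas Pycard was 2.18-fold higher as before.

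Markers of microglia, which express the inflammasome genes, were measured in both pools. Of 9 markers 6 had a log2 ratio above 0, with a median of 0.46. Fcrls had the largest log2 ratio (2.55), Csf1r was the brightest marker (0.46), and P2ry12, Tmem119 and Sall1 were below 0. The part of the microglial markers in the ratios of Casp1 and Pycard was not tested. Markers of neutrophils and monocytes had a median of 0.34, with 6 of 8 above the floor and Ccr2 and Elane under it. The log2 ratio was 0.15 for the brightest, S100a8, by a probe set marked for possible cross-hybridisation, and 0.70 for Ngp. Of 8 lymphocyte markers 5 were under the floor, among them Cd3e and Cd79a, and the others, with Jchain the brightest and Nkg7 the highest ratio, had a median of 0.25. The lists of neurons, perivascular macrophages, endothelium and meninges had medians of -0.98, -0.33, -0.21 and -0.30. Their brightest markers Snap25, Pf4, Itm2a and Ptgds had log2 ratios of -0.98, -0.53, -0.26 and 0.04, and those furthest from 0, Nefm, Ms4a7, Kdr and Aldh1a2, had -1.32, 1.12, -0.79 and -0.53.

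By the brightest probe set of each, genes that carry the signal of IL-1 from its receptor were close to equal in both pools. All 11 measured members of the MyD88 and IRAK list were above the floor in both arrays, and their median log2 ratio was 0.03. The ratios ran from -0.24 for Tab3 to 0.37 for the ubiquitin ligase gene Traf6, with the adaptor gene Myd88 at 0.32. The brightest, Tab2, had a log2 ratio of 0.14. The probe sets of Irak1 disagreed in direction. They ran from -0.65, by a probe set marked for possible cross-hybridisation, to 0.24.

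On the side of TNF, 2 of 13 ligands of its superfamily were above the floor. Tnfsf13b, the B-cell survival factor BAFF, went from 141.5 to 273.0 (1.93-fold higher), and Tnfsf10, which encodes TRAIL, had a log2 ratio of -0.08. The list of TNF receptors and signalling had 14 of 16 measured members above 0, a median of 0.24 and none over 2-fold. Tnfrsf1b, the receptor TNFR2, went from 205.8 to 386.4 and was 1.88-fold higher, against 1.25-fold for Tnfrsf1a, a difference that could not be tested. The 2 probe sets of Tnfrsf1b differed: the dimmer one passed the floor in CD47 KO alone, at 137.0 against 52.0 in WT. Tnfaip3, which encodes the NF-κB inhibitor A20, was 1.93-fold higher, and the inhibitor of apoptosis genes Birc2 and Birc3 had log2 ratios of 0.49 and -0.46.

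The NF-κB list had 7 of 10 measured members above 0 and a median of 0.20, with none over 2-fold. Nfkb2 was 1.93-fold higher, by a probe set whose name marks possible cross-hybridisation. The inhibitor gene Nfkbie had a log2 ratio of 0.73, by a probe set marked in the same way, and Bcl3 was at least 1.26-fold higher. Rela, the main activating subunit, had a log2 ratio of 0.02, and the brightest member, the inhibitor gene Nfkbia, had -0.13.

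**Figure D3:**
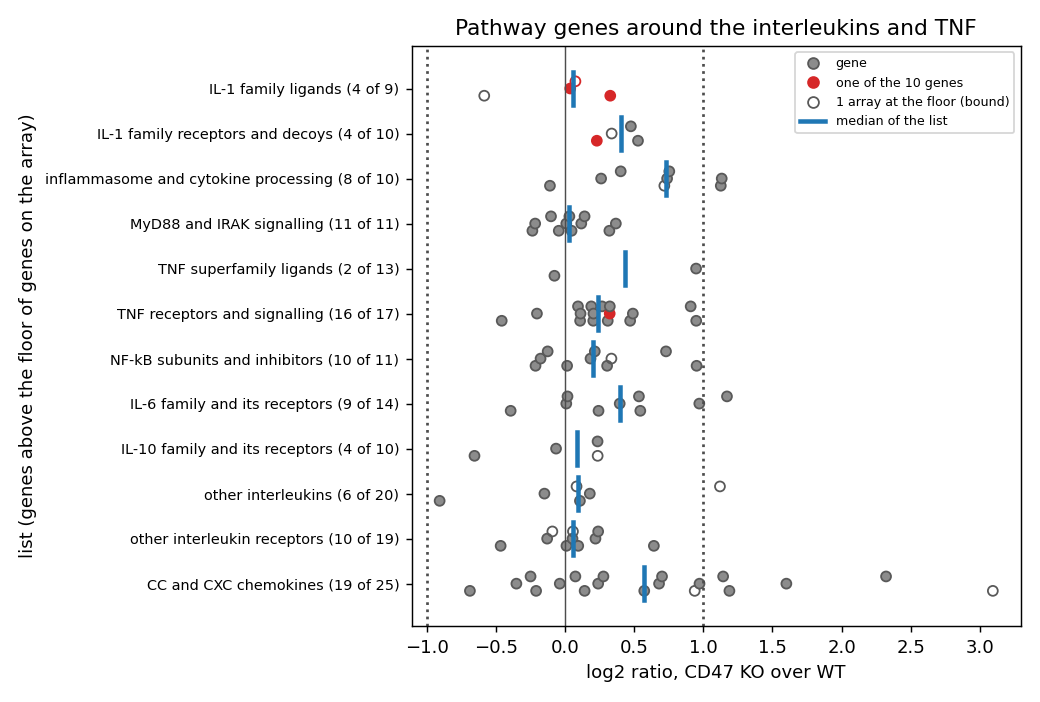
Log2 ratio, CD47 KO to WT pool (horizontal) of the measured genes of 12 lists, 1 circle per gene, with the 10 examined genes in red, open circles for ratios with 1 array at the floor, blue bars at the median of each list and dotted lines at a 2-fold difference. The filled red circles lie between 0.04 and 0.33, and at this floor the list medians furthest to the right are those of inflammasome and processing genes (0.73) and of chemokines (0.57).

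For IL-6, the ligand was under the floor and its receptor chains were measured. The IL-6 family list had 8 of 9 measured members above 0 and a median of 0.40. Il6ra, the specific receptor chain, had a log2 ratio of 0.54, and Il6st, the shared signalling chain gp130 and the brightest member over both arrays, had 0.24. Osmr, the receptor of oncostatin M, went from 679.4 to 1530 and was 2.25-fold higher, while its ligand Osm was under the floor in both arrays. Socs3, a feedback inhibitor of this pathway, was 1.96-fold higher by a probe set marked for possible cross-hybridisation. It was 1.76-fold higher by the median of its probe sets and also without those so marked. Ctf1, a cardiotrophin, had a log2 ratio of 0.53, and Lifr, a receptor chain for several ligands of the family, had 0.01.

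For IL-10, the ligand was under the floor too. Its receptor gene Il10rb went from 1421 to 1673 (log2 ratio 0.24), and Il10ra, at 77.8 in WT and 125.1 in CD47 KO, was at least 1.18-fold higher. Il20 had a log2 ratio of -0.65, Tyk2 one of -0.06, and the median over 4 members was 0.09.

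Other interleukins were under the floor for 14 of 20 genes. Ebi3, a subunit of IL-27 and IL-35, passed the floor in CD47 KO alone, at 230.8 against 62.6 in WT, and was at least 2.17-fold higher. The bound was 1.24-fold when the 60th percentile was the floor. Il17d, the brightest of the list, went from 629.1 to 335.7 (log2 ratio -0.91), by a probe set marked for possible cross-hybridisation. Il15 had a log2 ratio of 0.18. Of other interleukin receptors 10 of 19 were above the floor, with a median of 0.06. Il17rc had a log2 ratio of 0.64 and Il17rb one of 0.24, and Il13ra1, the brightest, had one of -0.46 by its brightest probe set while its 3 other probe sets were above 0.

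Chemokines, the other main class of cytokines made by activated microglia, are given for comparison. Of 25 chemokine genes 19 were above the floor, against 5 of the 10 genes examined and 12481 of all 18193 genes. Of these chemokines 5 were over 2-fold higher, beside 1.21% of all measured genes. Ccl3 was at least 8.53-fold higher, Ccl4, at 122.2 in WT and 610.8 in CD47 KO, was 5.0-fold higher, and Ccl6 was 3.03-fold higher. Ccl5 and Ccl2 were 2.28-fold and 2.21-fold higher. A floor at the 60th percentile left bounds of at least 4.87-fold for Ccl3, 3.28-fold for Ccl4 and 1.71-fold for Ccl2, so that Ccl2 no longer exceeded 2-fold, and Ccl3 was 11.5-fold higher at the 40th percentile. The median of the list was 0.57. Its brightest member, Cxcl12, had a log2 ratio of -0.35 by its brightest probe set. Another probe set of Cxcl12 measured in both arrays had 0.64, and the dimmest, at the floor in WT, at least 0.02. Whether chemokines differed from interleukins and TNF could not be tested with 1 array per genotype.

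The ratios of the 7 probe sets measured in both pools moved little with the processing. Il33 ran from 0.30 to 0.37 and Tnfrsf1a from 0.32 to 0.36 over other floors and scalings of the arrays. Il18 ran from 0.02 to 0.08, and the brightest probe set of Il1rap from 0.22 to 0.27. The 3 other probe sets of Il1rap were below 0 under each of these settings.

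**Figure D4:**
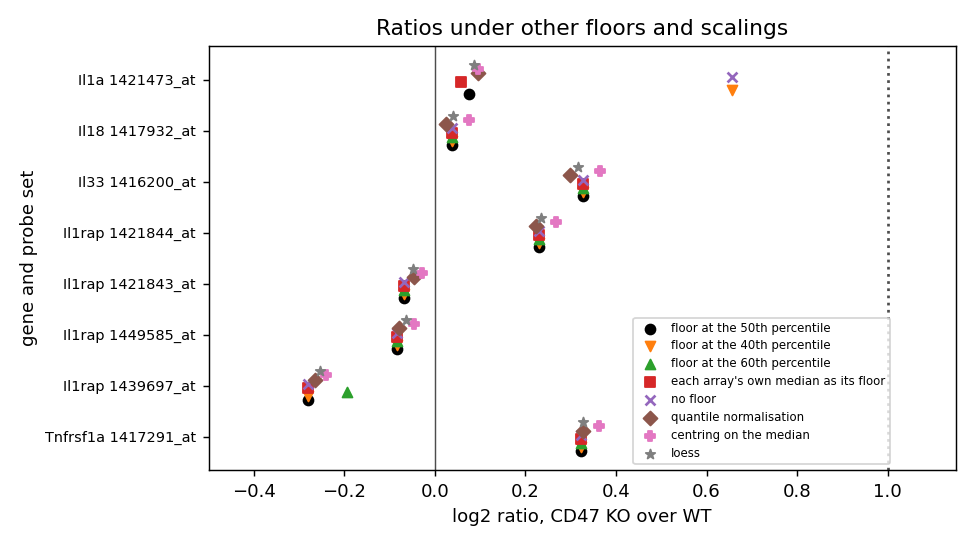
Log2 ratio, CD47 KO to WT pool (horizontal) of the 8 measured probe sets, with 1 symbol for each floor or scaling; the dotted line marks a 2-fold difference. The symbols of a probe set lie close together except for Il1a, which reads 0.66 with a lower floor or none and 0.06 to 0.10 with the others that give it a ratio.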

How the data were processed

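The authors pooled total RNA of several mice per genotype, made biotin-labelled RNA by 3' in vitro transcription and hybridised it to GeneChip Mouse Genome 430 2.0 arrays, which the methods say were processed in Expression Console. Each deposited value is the linear MAS5 intensity of a probe set, per the labels; the sources used here name no version. From 45101 probe sets, 64 controls were set aside. Intensities under the floor (the 50th percentile of both arrays, 106.2) were set to it before the log2 ratio was taken, which shortens the ratio of dim genes, and ratios with 1 signal so set are bounds. Names came from the platform annotation (34945 probe sets with 1 symbol, 932 with several, 9160 with none), updated by gene identifier. Differences over 2-fold, the limit used in the study, were counted. No test was possible. The ratio and scaling steps were tested on simulated data with known differences. These were placed in bright probe sets only, so that the effect of the floor on dim signals was not tested. Python 3.11.15, pandas 2.3.3 and statsmodels 0.14.6 were used. The 10 genes and the lists were chosen with earlier results of these data known. Genes named were all probe sets of the 10 genes, and of each list the largest ratios, the brightest gene and those over 2-fold; others, such as receptors, were named for their role after their values were seen. Alternatives were floors at the 40th and 60th percentile, each array's own median or no floor, quantile normalisation, centring, loess, no probe sets marked for cross-hybridisation, a 1.5-fold threshold and the median of a gene's probe sets.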

Additional observations from a re-analysis of the deposited data

How the results depend on the processing

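No paired analysis was possible because each genotype had 1 array. For the same reason no array could be left out. Of the 8 probe sets with a ratio, 0 were over 2-fold higher or lower under each of the other floors, scalings and selections of probe sets, and 0 were with a 1.5-fold threshold. The exception was the ratio without any floor, where all 16 probe sets gave a ratio and 1 was over 2-fold higher (Il6, with both signals far under the floor) and 10 were above 0, against 5 with the floor. Of the genes of the pathway lists 9 were over 2-fold higher and 0 lower; without a floor 25 were higher and 14 lower, and a floor at the 40th percentile gave 11 higher and 1 lower. Raising the floor to the 60th percentile left 6 higher and 0 lower, since Casp1, Ccl2 and Ebi3 no longer exceeded 2-fold. The median log2 ratio of the pathway genes kept to between 0.19 and 0.25 over all settings. The counts above the floor do not exist without a floor. What limits these data is the single pool per genotype and, for Tnf, Il1a, Il1b, Il6, Il10 and Il1rn, a signal near or under the floor.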
